A study of Mus musculus with 6 samples.

Results

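The endoplasmic reticulum (ER) chaperones and the unfolded protein response form the machinery with which a cell folds the proteins that it secretes or displays on its surface. The 35 genes examined here were chosen by name, as members of 6 arms of this machinery. A gene counted as measured where a probe in the deposited value table carried its symbol, and 27 of the 35 did, out of 7807 genes tested. Hspa5, Hyou1, Manf, Ero1l, Atf6, Eif2ak3, Derl1 and Uggt1 were not analysed here. Where several probes were listed under a gene's current symbol, the one with the highest mean signal over the 6 arrays gave its value, and a brighter probe of Pdia6 listed under an older name was not used for this.

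TC-1/A9 is a mouse tumour cell line deficient in surface MHC class I. It was derived from a tumour of TC-1 cells, which are C57BL/6 lung cells transformed with the HPV16 E6/E7 and activated Ha-ras oncogenes, and both groups therefore carry these oncogenes. RNA of 3 untreated cultures and of 3 cultures exposed to IFNγ at 50 U/ml for 24 h was labelled and read on Mouse WG6 bead arrays of Illumina, 1 array per culture, and the series design calls the 3 samples of a group biological replicates. The dose is that of the sample labels, whereas the study's methods give a higher dose, so that the dose itself is not settled.

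Proteins that enter the ER pass through the Sec61 channel, receive sugar chains, and are folded by chaperones of the Hsp70 and Hsp90 families, their J-domain cofactors and the protein disulfide isomerases. When unfolded proteins accumulate, the sensors IRE1 (encoded by Ern1), PERK (Eif2ak3) and ATF6 are activated. IRE1 splices the Xbp1 mRNA, PERK phosphorylates the initiation factor eIF2α and so favours translation of ATF4, and ATF6 is cleaved to a transcription factor. Their targets include chaperones, enzymes of amino acid supply, the pro-apoptotic factor CHOP (Ddit3) and the machinery that returns misfolded proteins to the cytosol for degradation. MHC class I heavy chains fold in the ER with the help of calnexin, calreticulin (Calr) and ERp57 (Pdia3). An expression array reads mRNA levels, so that splicing of Xbp1, phosphorylation of PERK and cleavage of ATF6 were not measured.

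The regulatory elements of this response can be read in the promoters of the genes. RefSeq windows from 250 bases before to 50 bases after the annotated start (build GRCm38.p6) were found for 30 of the 35 genes and searched on both strands. The patterns were chosen with the expression values already known, and 10 patterns were searched in all. The ER stress element ERSE, CCAAT and CCACG with 9 free bases between them, which binds NF-Y and ATF6, was present in 6 of the 30 windows (20%) and in 0.119% of 32851 windows of all genes. The 6 genes were Hspa5, Hsp90b1, Dnajc3, Creld2, Pdia6 and Syvn1. The related element ERSE-II, ATTGG and CCACG with 1 free base between them, occurred in Herpud1 and Dnajb11, against 0.0365% of all windows. The genes and the elements of this pathway were both chosen as its parts. Their difference in share from all windows is therefore no independent result. In the sequences of the measured genes with either element, shown because these elements are the pathway's own, the element is in capitals and each sequence reads 5′ to 3′ along the gene. The Hsp90b1 window is shown whole since it holds 2 copies of ERSE, the second of them in the opposite orientation, as is the copy in Creld2.
Hsp90b1 (chr10:86705395-86705694, minus strand): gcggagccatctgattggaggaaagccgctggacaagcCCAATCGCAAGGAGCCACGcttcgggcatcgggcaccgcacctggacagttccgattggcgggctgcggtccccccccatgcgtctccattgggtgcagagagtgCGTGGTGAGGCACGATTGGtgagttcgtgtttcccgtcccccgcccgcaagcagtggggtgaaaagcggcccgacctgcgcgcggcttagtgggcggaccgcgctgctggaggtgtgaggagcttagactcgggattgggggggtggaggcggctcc
Dnajc3 (chr14:118937806-118937866, plus strand): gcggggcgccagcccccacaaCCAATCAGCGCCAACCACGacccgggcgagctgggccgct
Creld2 (chr15:88819499-88819559, plus strand): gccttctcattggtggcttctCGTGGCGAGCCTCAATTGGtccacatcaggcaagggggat
Pdia6 (chr12:17266470-17266530, plus strand): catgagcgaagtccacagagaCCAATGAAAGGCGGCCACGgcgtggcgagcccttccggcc
Syvn1 (chr19:6046511-6046571, plus strand): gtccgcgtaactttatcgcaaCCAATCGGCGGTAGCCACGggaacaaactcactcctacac
Herpud1 (chr8:94386356-94386408, plus strand): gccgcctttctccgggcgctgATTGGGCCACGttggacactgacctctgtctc
Dnajb11 (chr16:22857831-22857883, plus strand): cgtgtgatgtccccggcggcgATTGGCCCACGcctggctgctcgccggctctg

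The 8-base element TGATGCAA, a form of the site bound by ATF4 with a C/EBP partner, was found in the windows of Atf3, Chac1 and Herpud1 and in 0.895% of all windows. It stands in capitals in the next 3 sequences, each time in the opposite orientation (TTGCATCA). Chac1 is shown whole because it had the largest positive fold change of the measured genes.
Chac1 (chr2:119350992-119351291, plus strand): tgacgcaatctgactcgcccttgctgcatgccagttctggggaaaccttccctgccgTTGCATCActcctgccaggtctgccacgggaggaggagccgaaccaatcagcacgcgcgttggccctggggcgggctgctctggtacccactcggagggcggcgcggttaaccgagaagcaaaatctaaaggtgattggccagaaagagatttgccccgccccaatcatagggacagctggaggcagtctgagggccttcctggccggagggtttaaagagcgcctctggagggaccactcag
Atf3 (chr1:191183415-191183464, minus strand): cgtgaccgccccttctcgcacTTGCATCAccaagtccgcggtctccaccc
Herpud1 (chr8:94386296-94386345, plus strand): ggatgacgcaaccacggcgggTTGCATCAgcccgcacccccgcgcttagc

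The elements through which interferons act each matched 1 of these windows. The IFNγ-activated site GAS, TTCNNNGAA, matched only Eif2ak3 of the 30 genes, against 8.3% of all windows, and the interferon-stimulated response element ISRE, TTTC and TTTC with 2 free bases between them, matched only Ppp1r15a, against 3.44%. Of the other patterns, the shorter ERSE core, CCAAT and CCA with 9 free bases between them, which every ERSE contains, was in 10 of the 30 windows and in 1.09% of all, and the looser ATF4 element TGATGNAA, which contains TGATGCAA, was in 5 and in 3.97%. The unfolded protein response element TGACGTGG (0.676% of all windows) and the longer ATF4 element TGATGCAAT (0.192%) were in 0 of the 30 windows. A stricter form of GAS, TTCCNNGAA, again matched only Eif2ak3 (4.81% of all). A match describes the letters of these windows and does not show that a factor binds there.

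Signals were compared on a log2 scale after quantile normalization, on which arrays can be compared for 1 probe but probes cannot be compared with each other. Irf1, an interferon-induced transcription factor gene, checked the treatment labels. It lay between 9.81 and 10.04 on the untreated arrays and between 12.53 and 12.97 on the IFNγ arrays, a log2 fold change of 2.80 (SE 0.13, adjusted p = 6.4e-09, limma). Vim, Fn1 and Sparc, 3 of 5 mesenchymal markers, were detected on all 6 arrays. Of 6 leukocyte markers only Cd68 and Csf1r were analysed here, both near background, and none of the 5 epithelial markers was. IFNγ replicate 3 had correlations over probes of 0.986 to 0.991 with the other 5 arrays. Their own correlations were 0.99 to 0.995, so that the ranges overlapped at their ends. IFNγ replicate 3 was the array farthest from the median of the 6 for 10 of the 27 ER genes (37%) and for 46.6% of all genes. For these 10 genes the fold change without it is given as well.

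No measured gene of this machinery passed the threshold for a change after IFNγ. Called genes had an adjusted p below 0.01 by limma with Benjamini-Hochberg adjustment over all 13545 tested probes. By this rule 0 of the 27 genes were higher, where the share among all 7807 genes was 1.27%, and 0 were lower, where it was 0.0256%. At an unadjusted p below 0.05, 1 gene was higher (Chac1, 3.7% of the 27, against 4.42% of all genes) and 0 were lower (against 4.07%). The 3 IFNγ arrays all lay above the 3 untreated ones for 2 genes, Chac1 and Trib3 (7.41%, against 6.44% of all genes), and all below for 0 genes (against 7.26%). These shares lay near or under those of all genes and are no result about the 27 genes in particular. The fold change was positive for 13 genes and negative for 14, with a median of -0.02 on the log2 scale, equal to the median of -0.02 over all genes at this precision. Ern1 and Atf3, both positive, were measured only through their detection in the IFNγ group, and Pdia6, negative, only through the untreated group. The signs of these genes are therefore not independent of the detection filter.

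The precision of the arrays set the size of change that could have been seen. The standard error of the log2 fold change was 0.10 to 0.19 over the 27 genes. In simulated data the rule called 5.46% of changes of 0.35 on the log2 scale and 41.8% of changes of 0.5. In the simulation most changes of these sizes were thus missed at this threshold. Its noise was of equal size on all arrays, whereas IFNγ replicate 3 was farthest from the median for 46.6% of all genes. The simulated shares are therefore only a rough guide for these arrays. The 95% confidence interval lay wholly within 0.5 on either side of 0 for 24 of the 27 (88.9%, against 83.1% of all genes), and within 1 for all 27 (against 98.9%). The 3 genes whose interval reached past 0.5 were Chac1 (up to 0.59), Derl2 (down to -0.73) and Sec61b (down to -0.68). A difference of 2-fold in signal, or 1 on the log2 scale, was therefore outside the interval of every measured gene, whereas differences within the intervals remain possible. These signals were not background corrected. After neqc background correction the log2 fold change was 0.43 for Ern1 (against 0.23), -0.20 for Pdia6 (against -0.10), 0.15 for Atf3 (against 0.08) and -0.05 for Edem1 (against -0.03). Derl2 and Dnajb9, both detected on all 6 arrays, went from -0.35 to -0.46 and from -0.04 to -0.07. The intervals therefore bound the change in signal and not that in mRNA, above all for genes near background. Of the 27 genes, 23 were detected on all 6 arrays at a detection p of 0.01 or less.

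**Figure D1:**
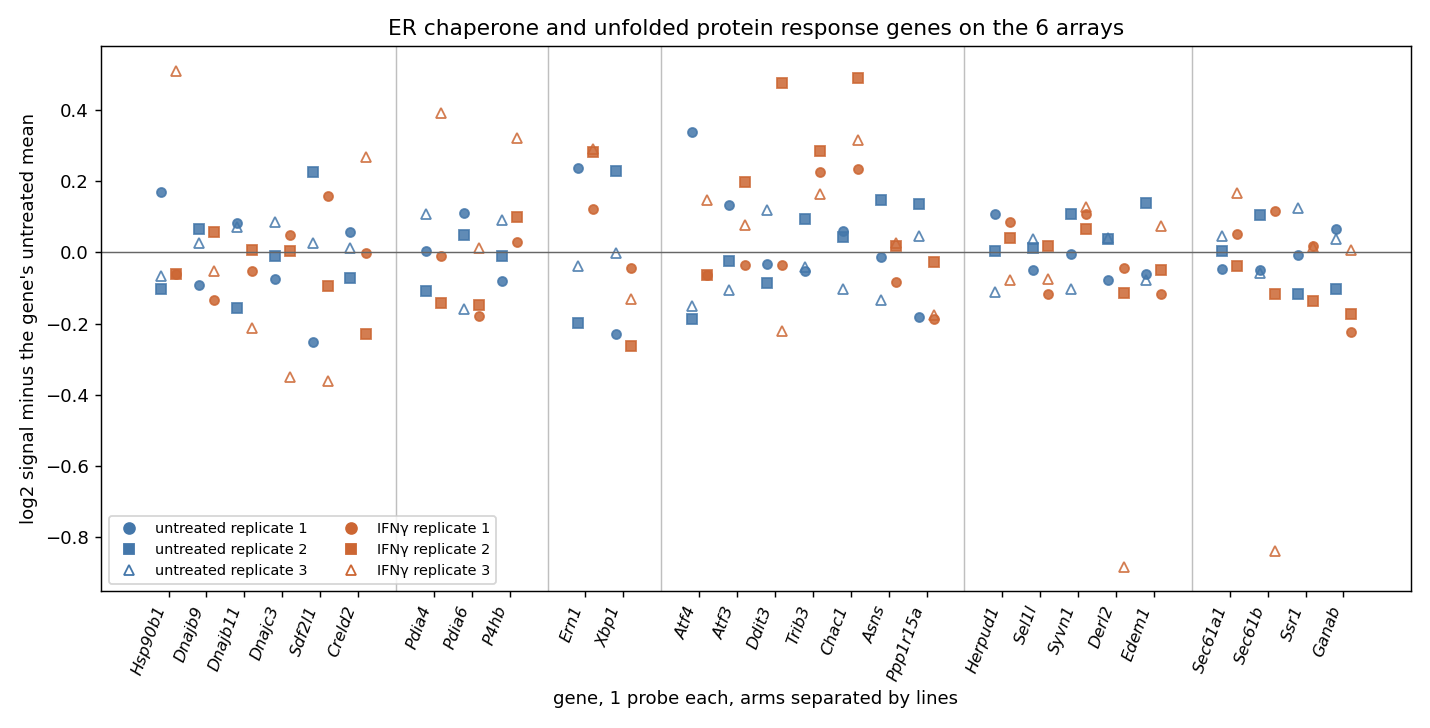
Log2 signal of each of the 27 genes on the 6 arrays, as the difference from the gene's untreated mean, with 1 point per array (blue untreated, orange IFNγ, marker shape by replicate number) and vertical lines between the arms. The orange points lie wholly above the blue ones only for Trib3 and Chac1, and the open orange triangles of IFNγ replicate 3 are far from the other arrays for Hsp90b1, Derl2 and Sec61b.

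The ER chaperones and their cofactors were measured through 6 of 9 genes, with a median log2 fold change of -0.06. Hsp90b1 encodes GRP94, the Hsp90 chaperone of the ER, which folds integrins and Toll-like receptors. Its log2 signal was 10.22, 9.946 and 9.985 on the untreated arrays and 9.99, 9.989 and 10.56 with IFNγ. The groups overlapped, and only IFNγ replicate 3 was higher than every untreated array. Its log2 fold change was 0.13 (SE 0.15, 95% interval -0.20 to 0.46, adjusted p = 0.852), and -0.06 without that replicate.

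The J-domain proteins hand unfolded clients to the Hsp70 chaperone BiP. Dnajb9 (ERdj4) ranged from 6.42 to 6.57 untreated and from 6.37 to 6.56 with IFNγ, and Dnajb11 (ERdj3) from 9.68 to 9.92 and from 9.62 to 9.84, with log2 fold changes of -0.04 and -0.09. For Dnajc3 (p58IPK), which also inhibits PERK, the ranges were 8.54 to 8.71 and 8.27 to 8.67, with a log2 fold change of -0.10. Each of these groups overlapped, and the lowest value of Dnajb11 and of Dnajc3 was that of IFNγ replicate 3. Without that array the log2 fold change was -0.02 for Dnajb11 and 0.03 for Dnajc3.

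Sdf2l1, a partner of ERdj3 and BiP, spread widely already among the untreated arrays, from 8.52 to 8.999, and from 8.41 to 8.93 with IFNγ, lowest on IFNγ replicate 3, and its log2 fold change was -0.10, and 0.03 without that array. Creld2, an ER resident protein with disulfide isomerase activity and a target of ATF6, ranged from 9.25 to 9.38 untreated and from 9.09 to 9.59 with IFNγ, with a log2 fold change of 0.01. The IFNγ arrays of Creld2 thus enclosed the untreated ones, and without IFNγ replicate 3, its highest array, the log2 fold change was -0.11. A second probe of Creld2 gave 0.03. For the 6 genes the adjusted p was 0.852 or more.

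The disulfide enzymes, which form and rearrange disulfide bonds in folding proteins, were measured through 3 of 4 genes. P4hb encodes the protein disulfide isomerase PDI. It had log2 signals of 13.04, 13.11 and 13.21 untreated and 13.15, 13.22 and 13.44 with IFNγ. The highest untreated array exceeded the lowest IFNγ array, so that the groups overlapped. This corresponded to a log2 fold change of 0.15 (SE 0.11, 95% interval -0.09 to 0.40, adjusted p = 0.767), and 0.07 without IFNγ replicate 3.

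Pdia4 (ERp72) ranged from 9.08 to 9.29 untreated and from 9.04 to 9.58 with IFNγ, with a log2 fold change of 0.08 that was -0.08 without IFNγ replicate 3, its highest array. Pdia6, which attenuates IRE1 signalling, was read by a probe near background, detected on 2 of 3 untreated and 1 of 3 IFNγ arrays, at 6.00 to 6.27 and 5.98 to 6.17, with a log2 fold change of -0.10. A brighter probe, which the platform lists under an older name of the gene, was detected on all 6 arrays, at 6.23 to 6.42 untreated and 6.17 to 6.28 with IFNγ, and its log2 fold change was -0.11. The choice of the dimmer probe, which carries the current symbol, was made after both values were known. The median of the arm, 0.08, was -0.08 without IFNγ replicate 3, and the mean shift of the arm from its untreated mean was 0.24 on that array against -0.05 and -0.06 on the other IFNγ arrays.

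**Figure D2:**
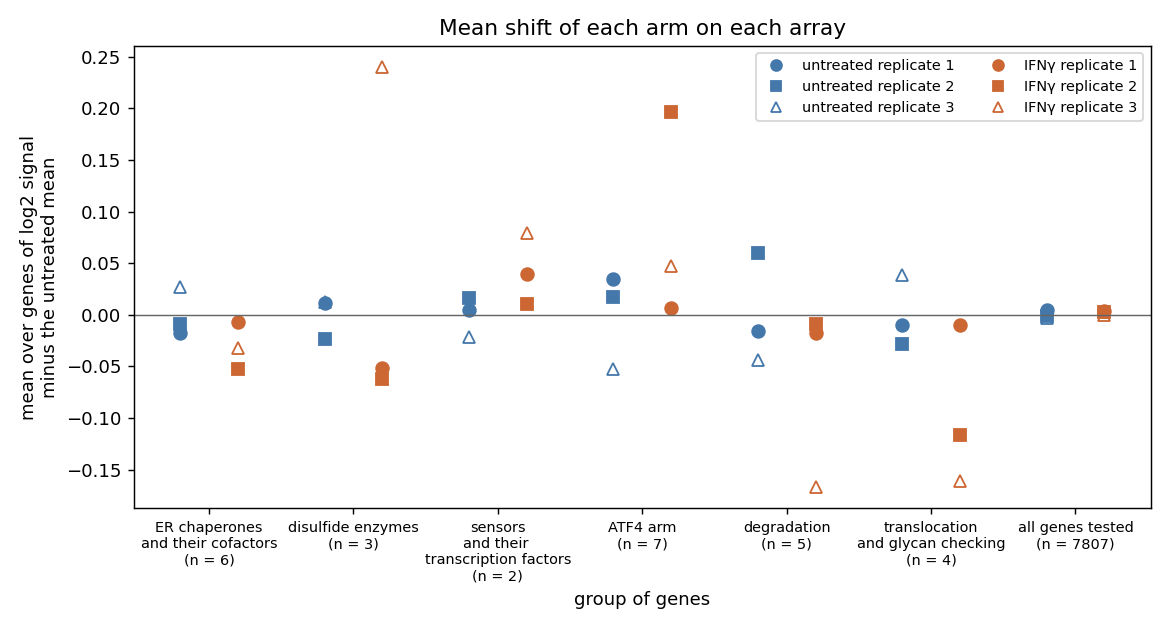
Mean over the genes of each arm of the log2 signal minus the gene's untreated mean, 1 point per array (blue untreated, orange IFNγ, marker shape by replicate number), with all 7807 genes at the right. IFNγ replicate 3 has the highest point of the disulfide enzymes (0.24) and the lowest of degradation (-0.17), and IFNγ replicate 2 has the highest point of the ATF4 arm (0.20).

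Of the sensors and their transcription factors, 2 of 4 genes were measured. Ern1 encodes the sensor IRE1α, a kinase and endoribonuclease. Its log2 signal was 6.34, 5.90 and 6.06 on the untreated arrays, detected on 1 of the 3, and 6.22, 6.38 and 6.39 on the IFNγ arrays, detected on all 3. Untreated replicate 1 lay above the lowest IFNγ array, and the groups overlapped. Its log2 fold change was 0.23 (SE 0.13, 95% interval -0.04 to 0.50, adjusted p = 0.687), at signals close to background. Ern1 was measured only through its detection in the IFNγ group, where it was higher, so that this sign is not independent of the filter.

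Xbp1 encodes the transcription factor that IRE1 activates by splicing, and the array values are for its mRNA without regard to the splice form. They were 9.81, 10.27 and 10.04 untreated and 10.00, 9.78 and 9.91 with IFNγ. The untreated arrays spread more widely than the difference between the group means, and the groups overlapped. A log2 fold change of -0.14 was fitted (SE 0.13, 95% interval -0.42 to 0.13, adjusted p = 0.795), and it was -0.26 without untreated replicate 1 and -0.03 without untreated replicate 2.

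The ATF4 arm was the only arm measured in full, with all 7 genes, and it held both genes whose groups did not overlap. Chac1 encodes a γ-glutamylcyclotransferase that degrades glutathione. Its log2 signal was 8.84, 8.82 and 8.68 untreated and 9.01, 9.27 and 9.09 with IFNγ. All 3 IFNγ arrays lay above all 3 untreated ones. This gave a log2 fold change of 0.35, a fold of 1.27 (SE 0.11, 95% interval 0.11 to 0.59, unadjusted p = 0.0083, adjusted p = 0.311), and 0.36 without IFNγ replicate 3 (adjusted p = 0.173).

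Trib3 encodes a pseudokinase that is induced by ATF4 and CHOP and restrains ATF4. It had log2 signals of 7.43, 7.57 and 7.44 untreated and 7.70, 7.76 and 7.64 with IFNγ. The groups were apart, with each IFNγ array above the highest untreated one. For this probe the log2 fold change was 0.23 (SE 0.11, adjusted p = 0.641). A dimmer second probe gave 6.12, 6.24 and 6.21 untreated and 6.22, 6.37 and 6.13 with IFNγ, with overlapping groups and a log2 fold change of 0.05 (adjusted p = 0.926).

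Atf4 itself, the transcription factor at the head of the arm, had log2 signals of 10.11, 9.59 and 9.62 untreated and 9.71, 9.71 and 9.92 with IFNγ. Untreated replicate 1 was the highest of the 6 arrays and the groups overlapped. This left a log2 fold change of 0.01 (SE 0.14, 95% interval -0.30 to 0.31, adjusted p = 0.994). A second probe of Atf4 varied by 0.0215 over the 6 arrays, where the first varied by 0.52, and gave -0.01. Over the fits that left out 1 array, the first probe of Atf4 gave -0.09 (without untreated replicate 2) to 0.17 (without untreated replicate 1).

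Ddit3 encodes CHOP, the transcription factor that links lasting ER stress to cell death. Its log2 signal was 8.86, 8.81 and 9.02 untreated and 8.86, 9.37 and 8.67 with IFNγ. IFNγ replicate 2 was the highest and IFNγ replicate 3 the lowest of the 6 arrays, so that the IFNγ group enclosed the untreated one. The log2 fold change was 0.07 (SE 0.16, 95% interval -0.26 to 0.41, adjusted p = 0.924), and that of a second probe, also highest on IFNγ replicate 2, was -0.05. Without IFNγ replicate 2 the first probe of Ddit3 gave -0.13, and without IFNγ replicate 3 it gave 0.22.

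Among the other genes of the arm, Atf3, a stress-induced transcription factor, was detected on 1 of 3 untreated and 3 of 3 IFNγ arrays, at 6.03 to 6.27 and 6.10 to 6.33, with a log2 fold change of 0.08. For Asns, asparagine synthetase and a direct target of ATF4, the ranges were 10.22 to 10.50 and 10.27 to 10.38, with a log2 fold change of -0.02 by this probe and 0.07 by a second. Ppp1r15a, or GADD34, the phosphatase subunit that reverses eIF2α phosphorylation, ranged from 8.35 to 8.66 and from 8.34 to 8.50, with a log2 fold change of -0.13. The groups of these 3 genes overlapped. Over the arm the fold change was positive for 5 genes and negative for 2, and the median was 0.07. One of the positive genes, Atf3, was measured only through its detection in the IFNγ group. Of all genes, 46.2% had a positive fold change. Among 17 further ATF4 target genes measured, 7 were positive and 10 negative, with a median of -0.04. The 3 genes with the element TGATGCAA shown above had log2 fold changes of 0.08 (Atf3), 0.35 (Chac1) and 0.02 (Herpud1).

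**Figure D3:**
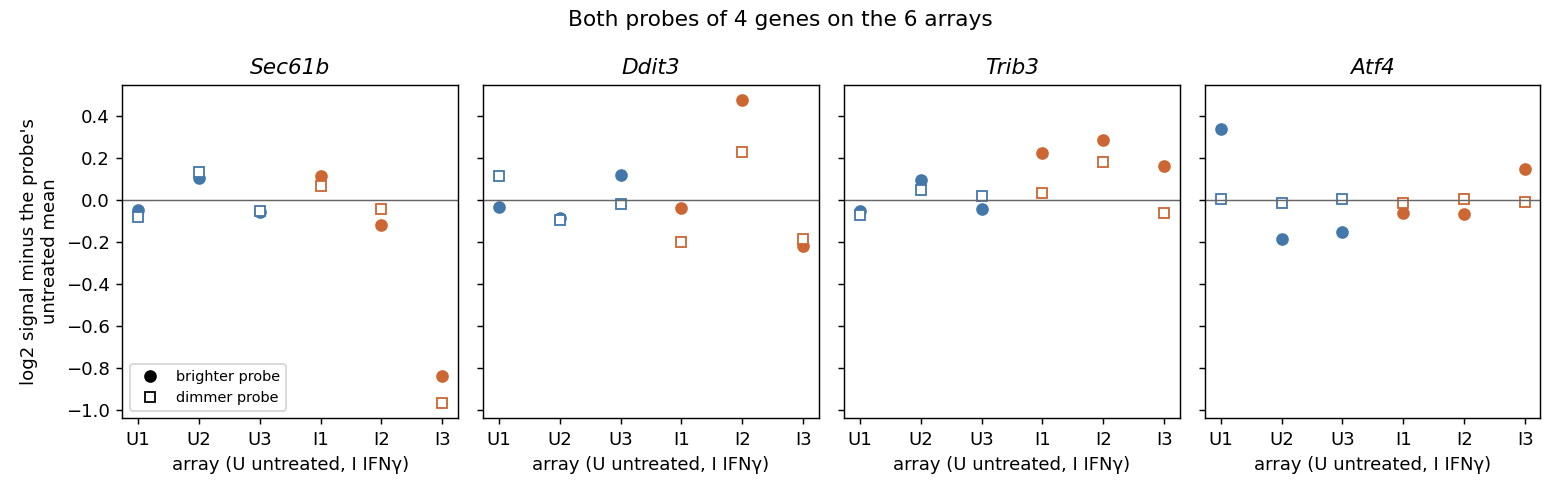
Log2 signal minus the probe's untreated mean on the 6 arrays for both probes of Sec61b, Ddit3, Trib3 and Atf4 (filled circles the brighter probe, open squares the dimmer one, blue untreated, orange IFNγ). Both Sec61b probes are lowest on IFNγ replicate 3 and both Ddit3 probes highest on IFNγ replicate 2, while the dimmer Trib3 probe has overlapping groups and the dimmer Atf4 probe varies by 0.0215 in all.

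The degradation arm returns misfolded proteins to the cytosol, and 5 of its 6 genes were measured. Derl2 encodes a derlin, a membrane protein of this route. Its log2 signal was 7.45, 7.57 and 7.57 untreated and 7.49, 7.42 and 6.65 with IFNγ. IFNγ replicate 3 differed by -0.838 from the median of the other 5 arrays, which ranged from 7.42 to 7.57. The log2 fold change of -0.35 (SE 0.18, 95% interval -0.73 to 0.04, adjusted p = 0.669) was the most negative of the 27 genes, and it was -0.08 without that array. It was -0.50 without IFNγ replicate 1 and -0.46 without IFNγ replicate 2.

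Herpud1, a membrane protein that assembles the degradation complex, ranged from 9.40 to 9.62 untreated and from 9.44 to 9.60 with IFNγ, with a log2 fold change of 0.02, and 0.08 by a second probe. Sel1l and Syvn1 (HRD1) form the ubiquitin ligase at the centre of the arm. Sel1l ranged from 7.57 to 7.65 and from 7.496 to 7.63 and Syvn1 from 10.49 to 10.70 and from 10.66 to 10.72, with log2 fold changes of -0.06 and 0.10. Edem1, a lectin-like protein that directs mannose-trimmed glycoproteins to the ligase, was detected on 2 of 3 untreated and 3 of 3 IFNγ arrays, at 6.15 to 6.36 and 6.11 to 6.30, with a log2 fold change of -0.03. The groups overlapped for each of these 4 genes, and the median of the arm was -0.03.

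The genes of translocation and glycan checking were measured through 4 of 5. Sec61b encodes the β subunit of the Sec61 channel. It had log2 signals of 9.91, 10.06 and 9.90 untreated and 10.07, 9.84 and 9.12 with IFNγ. IFNγ replicate 3 was the lowest array, at -0.79 from the median of the other 5, and a second probe had its lowest value, 7.22, on the same array, where the other 5 ranged from 8.11 to 8.32. The log2 fold change was -0.28 (SE 0.19, 95% interval -0.68 to 0.13, adjusted p = 0.745), and 0.00165 without that array. It was -0.48 without IFNγ replicate 1 and -0.36 without IFNγ replicate 2.

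Sec61a1, the pore of the channel, ranged from 9.61 to 9.71 untreated and from 9.62 to 9.83 with IFNγ, with a log2 fold change of 0.06, and 0.00616 without IFNγ replicate 3, its highest array. Ssr1, the translocon-associated protein α, ranged from 6.89 to 7.14 and from 6.87 to 7.03, with a log2 fold change of -0.03. For Ganab, the catalytic subunit of glucosidase II, which trims glucose from new glycoproteins and thereby controls their binding to calnexin and calreticulin, the ranges were 10.18 to 10.35 and 10.06 to 10.29. Its log2 fold change was -0.13, and its 2 dimmer probes gave -0.09 and 0.02. These groups overlapped, and the median of the arm was -0.08.

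**Figure D4:**
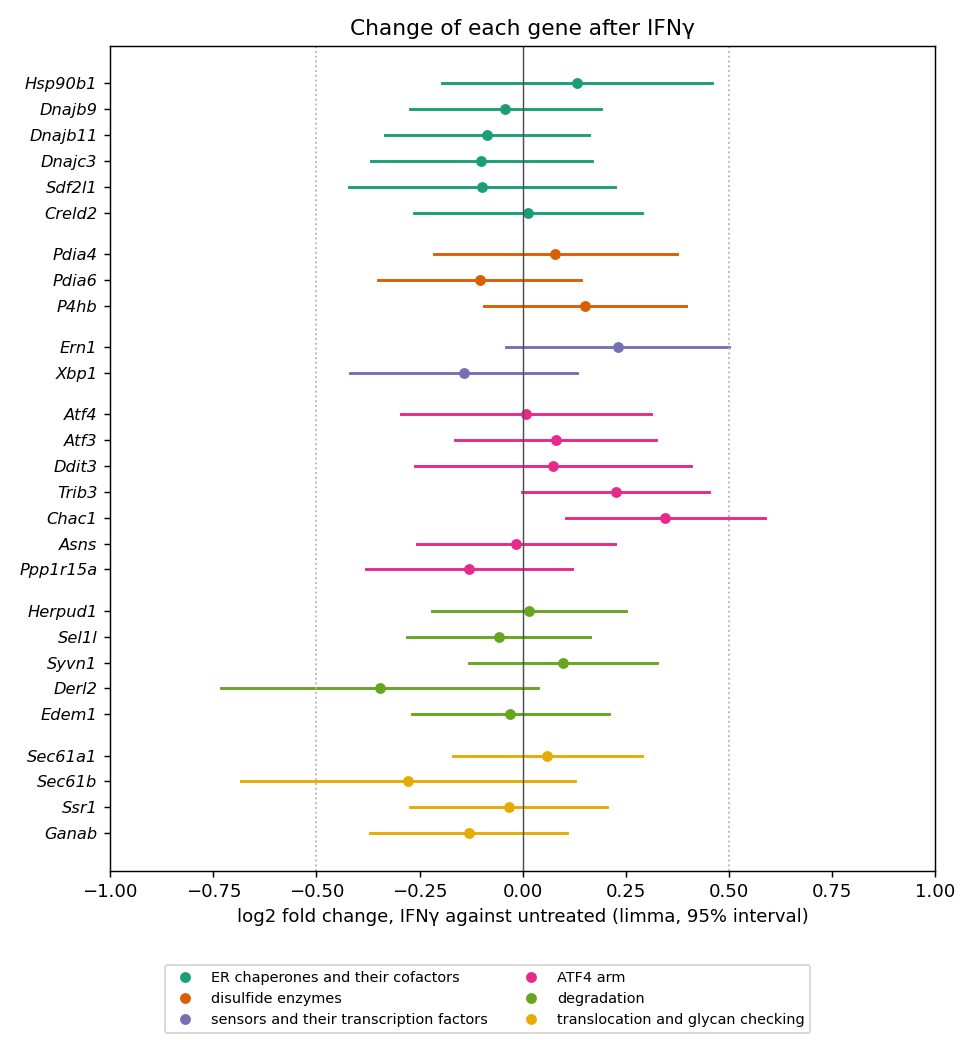
Log2 fold change of each of the 27 genes, IFNγ against untreated, with its 95% confidence interval from limma, coloured by arm, and dotted lines at 0.5 on either side of 0. Only the interval of Chac1 lies wholly on one side of 0, and only those of Chac1, Derl2 and Sec61b reach past a dotted line.

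Of the 7 measured genes with ERSE or ERSE-II, Hsp90b1 (0.13), Syvn1 (0.10), Herpud1 (0.02) and Creld2 (0.01) had positive log2 fold changes and Dnajb11 (-0.09), Dnajc3 (-0.10) and Pdia6 (-0.10) negative ones, with 0 called. Leaving out IFNγ replicate 3 left 0 of the 27 genes called, with fold changes from -0.20 to 0.36 on the log2 scale. The interval then lay within 0.5 of 0 for 26 of the 27, the exception being Chac1. Trib3 then joined Chac1 at an unadjusted p below 0.05, with an adjusted p of 0.476 by limma.

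A wider list of 122 further genes of the pathway gave a similar picture, with 92 measured, 0 called in either direction and a median log2 fold change of -0.02. At an unadjusted p below 0.05, 3 were higher (Tmbim6, Creb3 and Cebpb, 3.26%, against 4.42% of all genes) and 4 lower (Ppib, Rnf5, Creb3l2 and Aldh18a1, 4.35%, against 4.07%). The groups did not overlap for 3 that were higher (Tmbim6, Creb3 and Sec61a2, 3.26%, against 6.44%) and 6 that were lower (6.52%, against 7.26%). Creb3, Creb3l2, Aldh18a1 and Sec61a2 are named after their values were seen. Of the chaperones that bind MHC class I heavy chains, Calr ranged from 8.99 to 9.03 untreated and from 8.97 to 9.23 with IFNγ (log2 fold change 0.05), and Pdia3 ranged from 11.36 to 11.70 untreated and had its highest value on IFNγ replicate 3 (log2 fold change 0.18, adjusted p = 0.762, and 0.05 without that array). The largest changes of the 5 sublists were those of Tmbim6, Cebpb, Ppib, Rnf5 and Srpr. Tmbim6 (Bax inhibitor 1, an ER membrane protein that restrains IRE1) had log2 signals of 11.40, 11.79 and 11.59 untreated and 11.88, 11.95 and 12.13 with IFNγ. All IFNγ arrays were above the untreated ones, and the log2 fold change was 0.39 (95% interval 0.12 to 0.66, adjusted p = 0.29).

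Cebpb, a transcription factor that partners ATF4, had a log2 fold change of 0.35 (adjusted p = 0.607), with 10.57 to 10.65 untreated and 10.61 to 11.36 with IFNγ. Without IFNγ replicate 3 it was 0.53 (adjusted p = 0.0205), and without IFNγ replicate 2 it was 0.16 (adjusted p = 0.669). Ppib, the ER peptidyl-prolyl isomerase cyclophilin B, was at 9.90 to 9.95 untreated and 9.25 to 9.82 with IFNγ, a log2 fold change of -0.33 (adjusted p = 0.583) in groups that did not overlap. Its lowest value was that of IFNγ replicate 3, without which the log2 fold change was -0.15. The fold change of Ppib was -0.44 without IFNγ replicate 1 and -0.39 without IFNγ replicate 2. Rnf5, a ubiquitin ligase of the ER membrane, and Srpr, the receptor of the signal recognition particle, had log2 fold changes of -0.32 and -0.22 (adjusted p = 0.629 and 0.665), and -0.19 and -0.17 without IFNγ replicate 3. These were -0.44 and -0.31 without IFNγ replicate 1, and -0.33 and -0.19 without IFNγ replicate 2. None of these genes passed the threshold.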

How the data were processed

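RNA of 6 cultures, 3 untreated and 3 treated with IFNγ, was measured on bead arrays. The authors extracted average bead intensity values with BeadStudio, not normalized between arrays, and deposited them with a detection p-value for each probe. The authors also deposited a log2 value table of 12421 probes, which matched quantile-normalized log2 intensities of the full set of 45281 probes to within 4.97e-14 and had a median of 7.56 on each array.

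Here log2 intensities were quantile normalized over all probes. The 13545 probes with a detection p of 0.01 or less on at least 1 array were tested with limma version 3.58.1 (lmFit, eBayes) in R version 4.3.3, and called at an FDR below 0.01 after Benjamini-Hochberg adjustment across all of them. The fit was tested on simulated data with Gaussian noise of each probe's moderated SD, which was adopted after a first run with the unmoderated SD had recovered fewer of the smaller changes. The number of arrays limits the precision.

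Symbols were taken from the platform annotation and updated through RefSeq, so that 11180 probes of the table had 1 symbol, 0 several and 1241 none. The members, arms, wider list and naming rule were chosen with earlier results of these data known. The rule names every measured member, with full values for Hsp90b1, Xbp1, Atf4, Ddit3, any member with an unadjusted p below 0.05 and the largest change of each arm. Of the wider list it names Calr, Pdia3, called genes and the largest change of each sublist. Full values of Trib3 were added after its values were seen. Alternatives were other background corrections, normalizations, filters, variance models, thresholds and probe rules, a replicate block, and leaving out each array.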

Additional observations from a re-analysis of the deposited data

How the results depend on the processing

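Under each of 18 alternatives, 0 of the measured genes and 0 of the wider list were called in either direction. The lowest adjusted p of a member was 0.0325, for Chac1 with array weights, and that of Chac1 ranged up to 0.996. In the wider list the lowest adjusted p was 0.0105 with array weights, just above the threshold, and 0.0205 without IFNγ replicate 3 (Cebpb, which had 0.024 with array weights). Array weights gave IFNγ replicate 3 a weight of 0.232, against 0.68 to 2.67 for the other arrays. The median log2 fold change of the 27 genes, -0.0168, was -0.0602 after 75th-percentile centring and 0.0058 after cyclic loess, and lay between -0.0396 and 0.0131 when 1 array was left out, and the cause was not tested. With 75th-percentile centring the median of all tested probes was -0.0444, against -0.0117. Among all probes, 141 were higher and 2 lower, and over the alternatives 74 to 248 were higher and 0 to 35 lower. A replicate block gave 0 called genes and a median of -0.0168. The labels do not say whether same-numbered samples were paired. Same-numbered arrays had correlations of -0.19, 0.043 and -0.025 between their deviations from the group means. With 3 arrays per group these values cannot decide whether the samples were paired. The sign of the fold change turned in at least 1 alternative for 15 of the 27 genes, none of them called in any setting, and the largest change among these was that of Sec61b (0.278 in size). The signals of the Pdia6 probe used and of Ern1, Atf3 and Edem1 lay close to background, which limits what their values show.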
